A study of Homo sapiens with 6 samples.

Results

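The MYC, MAX and MXD network was followed in RNA-seq of PC-3 tumors from vehicle-treated and WCE-treated mice. The 10 genes MYC, MYCN, MAX, MXD1, MXD3, MXD4, MXI1, MNT, MGA and MLX were found by gene symbol among the 24000 entries of the deposited table, and all 10 had an entry. PC-3 cells come from a human prostate cancer and grow without androgen, and WCE is a standardized extract of the herb Wedelia chinensis. There were 3 tumors from vehicle-treated and 3 from WCE-treated nude mice. The labels give 10 weeks of treatment for all 6 tumors, with no dose. The study describes a shorter oral treatment of mice with PC-3 tumors in the prostate, and names different WCE doses in its results and methods. Which of these applies to the sequenced tumors is not stated. Nude mice lack mature T cells but keep myeloid cells, so neither group models a tumor in a host with full immunity. PC-3 cells for the in vivo work of the study carried a luciferase gene.

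MYC is a transcription factor that drives growth, ribosome production and the cell cycle, and it binds DNA only as a dimer with MAX. The MXD proteins (MXD1, MXD3, MXD4 and MXI1), MNT and MGA also dimerize with MAX, occupy the same E-box sequence and repress, the MXD proteins and MNT through the SIN3 and histone deacetylase complex. MLX is a MAX-like partner that binds MXD1, MXD4, MNT and the nutrient-sensing factors MLXIP and MLXIPL. In prostate cancer, gain of MYC is a common event.

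Values are FPKM (fragments by transcript length in kilobases and by the mapped fragments of a library), which allow levels to be compared between genes. Vehicle replicate 3 and WCE replicate 1 were nearly identical libraries. Over 1915 entries with a mean of at least 50 FPKM they differed by a median of 0.028 on the log2 scale, while the other 14 pairs differed by 0.095 to 0.25, and WCE replicate 1 had the lowest depth, 25.0% of that of vehicle replicate 3. Of all entries, 1419 were above 0 only in vehicle replicate 3 of this pair and 0 only in WCE replicate 1, whereas in the other 14 pairs each tumor had at least 329 that its partner lacked. The labels put these libraries in different groups. Whether 1 library was deposited under both labels was not tested, and if it was, the means, SDs and n = 3 given here would not describe 3 separate tumors per group. The comparisons are therefore also given without these 2 libraries. Of the markers of PC-3 tumor cells, KRT8, KRT18, EPCAM, VIM and CD44 were each above 100 FPKM in every tumor (lowest 105), and KLK2 and KLK3 were listed at 0 in all 6. TMPRSS2, listed among genes presumed low, was at 9.94 to 26.1 FPKM. The summed level of 7 endothelial markers was 2.69 to 6.19 FPKM in vehicle-treated and 5.96 to 10.4 FPKM in WCE-treated tumors, with EMCN at 0 in all 6. KDR carried this difference, at 0.216 to 0.529 against 0.559 to 5.12 FPKM, and the other 6 summed to 2.48 to 5.94 against 5.27 to 5.40 FPKM. The summed level of 7 leukocyte markers, nearly all from CD68, was 25.6 to 41.2 against 40.2 to 44.4 FPKM, and that of 7 stromal markers 44.1 to 58.8 against 14.0 to 58.4 FPKM. PTPRC was at 0.666 FPKM or less in every tumor, and COL1A2 at 0.628 FPKM or less beside COL1A1 at 10.4 to 45.7 FPKM. Host cells of these tumors are mouse cells, the entries carry human symbols, and how mouse reads were treated is not known. These sums thus cannot be read as amounts of host endothelial cells, leukocytes or stroma. The part of these markers in the results below was not tested. In whole tumors fewer cells of a type and less RNA per cell cannot be told apart.

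MYC was the most abundant network transcript in each tumor and MYCN the least. By mean level over the 6 tumors the order was MYC at 110 FPKM, MAX at 60.8, MXD3 at 18.0, MLX at 17.2, MXI1 at 9.27, MXD4 at 8.39, MXD1 at 7.14, MGA at 6.49, MNT at 4.83 and MYCN at 0.379 FPKM. MYC lay at the 96.5th percentile of all entries and MAX at the 93.5th. MYC and MAX did not overlap in range, nor did MAX and MXD3, MLX and MXI1, MGA and MNT, or MNT and MYCN. The neighbors MXD3 and MLX, MXI1 and MXD4, MXD4 and MXD1, and MXD1 and MGA overlapped, although MXD4 was above MXD1 within each of the 6 tumors.

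**Figure D1:**
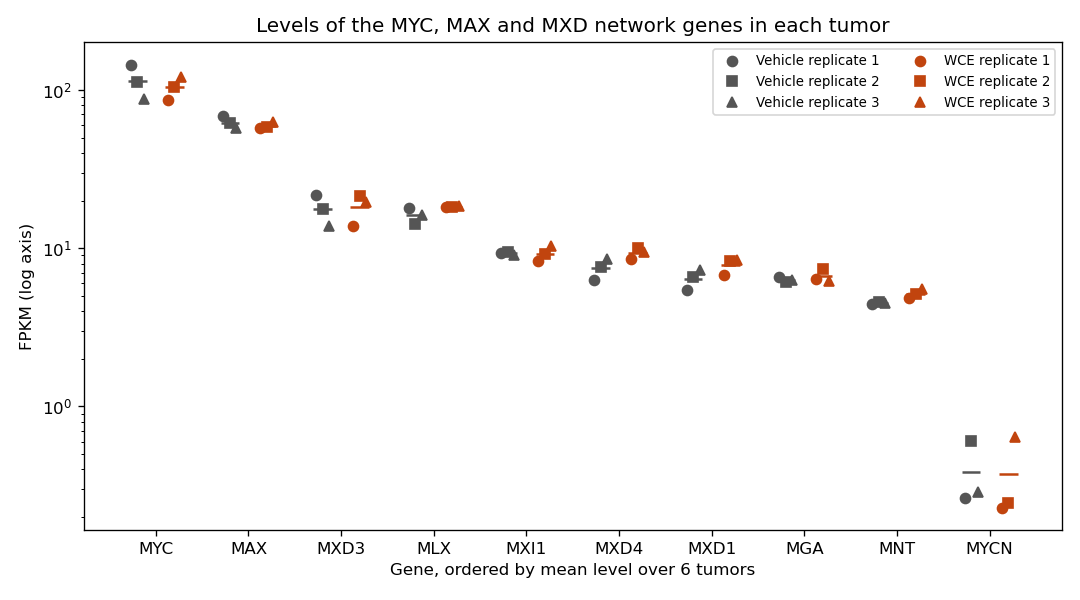
FPKM of the 10 network genes (log axis) in each tumor, with gray symbols for vehicle-treated and orange symbols for WCE-treated tumors and a line at each group mean. MYC and MAX sit highest and MYCN lowest in both groups, and the groups are separated in MNT and MLX.

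Neither MYC gene differed between the groups beyond the spread between tumors. MYC, listed on chromosome 8 from 128748315 to 128753680, was at 145, 112 and 87.2 FPKM in vehicle replicates 1 to 3 and at 86.5, 105 and 121 FPKM in WCE replicates 1 to 3. The highest and the lowest vehicle-treated tumor thus enclosed all but the lowest of the WCE-treated tumors, which was WCE replicate 1, next to its near copy. The means were 115 ± 28.9 and 104 ± 17.4 FPKM (SD, n = 3 each). The log2 fold change of FPKM + 1 was −0.12 with a 95% interval of −0.59 to 0.35 (adjusted p = 0.855 by limma with Benjamini-Hochberg adjustment). MYCN, the neural relative of MYC, was at 0.265, 0.606 and 0.286 FPKM across the vehicle-treated and at 0.228, 0.246 and 0.642 FPKM in the WCE-treated tumors. With a mean of 0.379 FPKM it fell under the filter of 0.5 FPKM and was not tested in the fit. Its locus on chromosome 2, from 16080020 to 16087129, is shared with that of the antisense entry MYCNOS, and strand use in the authors' counting is not given in the sources used here. MYCL, the other MYC paralog, listed as MYCL1, belongs to the wider list described below.

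MAX followed the same order of tumors as MYC. It was at 68.0, 61.4 and 57.4 FPKM across the vehicle-treated and at 57.1, 58.5 and 62.4 FPKM in the WCE-treated tumors. Vehicle replicate 1 was highest and WCE replicate 1 lowest for both genes, and the 4 tumors between them came in the same sequence. MAX varied less, by 1.19-fold between its highest and lowest tumor against 1.67-fold for MYC. The MYC to MAX ratio was 2.13, 1.83 and 1.52 in the vehicle-treated and 1.52, 1.79 and 1.94 in the WCE-treated tumors. The log2 fold change of MAX was −0.07 with a 95% interval of −0.30 to 0.16 (adjusted p = 0.839 by limma with Benjamini-Hochberg adjustment). The MAX locus, on chromosome 14 from 65381079 to 65569227, is shared by 5 other entries, FNTB, GPX2 and RAB15 among the genes they name.

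Among the repressors, MXD1 and MXD4 had the largest differences, both toward higher levels in WCE-treated tumors. MXD1, which rises when many cell types stop dividing and differentiate, is listed on chromosome 2 from 70142173 to 70170076. It was at 5.47, 6.54 and 7.26 FPKM across the vehicle-treated and at 6.78, 8.36 and 8.46 FPKM in the WCE-treated tumors. The groups overlapped through vehicle replicate 3 and WCE replicate 1, while WCE replicates 2 and 3 were above every vehicle-treated tumor. The log2 fold change was 0.26 (95% interval −0.06 to 0.57, unadjusted p = 0.0934 by limma, with an adjusted p = 0.623). MXD4 is listed in a joint entry with the microRNA gene MIR4800, on chromosome 4 from 2249160 to 2263739. It was at 6.33, 7.58 and 8.56 FPKM across the vehicle-treated and at 8.52, 9.95 and 9.42 FPKM in the WCE-treated tumors. Only vehicle replicate 3, by 0.0059 on the log2 scale, kept these groups from separating. The log2 fold change of MXD4 was 0.28 (95% interval −0.01 to 0.58, unadjusted p = 0.057 by limma, with an adjusted p = 0.623). For both genes vehicle replicate 1, the tumor with the highest MYC, was the lowest of the 6.

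Without vehicle replicate 3 and WCE replicate 1, the log2 fold change was 0.43 for MXD1 (95% interval 0.09 to 0.76, unadjusted p = 0.0214 by limma) and 0.43 for MXD4 (95% interval 0.09 to 0.77, unadjusted p = 0.0219 by limma). Both had an adjusted p of 0.216 by limma, with 2 tumors left in each group. In this comparison the log2 fold change was −0.18 for MYC, −0.09 for MAX, 0.06 for MXD3, 0.04 for MXI1, 0.20 for MNT, 0.18 for MLX and 0.08 for MGA, and the 95% interval of each of these 7 included 0. These were 2 of the 9 network genes tested, in a comparison where 18.4% of all entries had an unadjusted p under 0.05. MXD1 was also under that threshold when WCE replicate 1 alone was left out (log2 fold change 0.35), and MXD4 when vehicle replicate 3 (0.38) or WCE replicate 1 (0.34) was left out, in fits where 13.3% (vehicle replicate 3) and 15.3% (WCE replicate 1) of all entries were under it. When vehicle replicate 1 was left out, MXD1 was at 0.16 (unadjusted p = 0.26 by limma) and MXD4 at 0.18 (unadjusted p = 0.161 by limma).

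MXD3 and MXI1 showed no difference beyond the spread between tumors. MXD3, a family member expressed in dividing cells, was at 21.6, 17.6 and 13.8 FPKM across the vehicle-treated and at 13.9, 21.4 and 19.5 FPKM in the WCE-treated tumors. Its lowest tumors were the nearly identical libraries, as for MYC and MAX, and its log2 fold change was 0.04 with a 95% interval of −0.42 to 0.51. The locus of MXD3, on chromosome 5 from 176730835 to 176739292, is shared with PRELID1. MXI1, on chromosome 10 from 111967363 to 112047123 with 3 transcription start sites, was at 9.35, 9.49 and 9.01 FPKM across the vehicle-treated and at 8.26, 9.21 and 10.3 FPKM in the WCE-treated tumors. WCE-treated tumors lay on both sides of the vehicle-treated ones, and the log2 fold change was −0.0091 with a 95% interval of −0.26 to 0.24.

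MNT and MLX were the 2 network genes whose groups did not overlap, each higher in WCE-treated tumors. MNT, the most widely expressed MAX-binding repressor, is listed on chromosome 17 from 2287354 to 2304258. It was at 4.41, 4.57 and 4.53 FPKM across the vehicle-treated and at 4.86, 5.14 and 5.48 FPKM in the WCE-treated tumors. The gap lay between vehicle replicate 2 and WCE replicate 1. The log2 fold change of MNT was 0.16 with a 95% interval of −0.07 to 0.39 (adjusted p = 0.633 by limma with Benjamini-Hochberg adjustment). MLX, on chromosome 17 from 40719078 to 40729849 at a locus shared with PSMC3IP, was at 18.0, 14.3 and 16.3 FPKM across the vehicle-treated and at 18.3, 18.3 and 18.4 FPKM in the WCE-treated tumors. The WCE-treated tumors differed by an SD of 0.0392 FPKM and vehicle replicate 1 came close to them. The log2 fold change of MLX was 0.17, with a 95% interval of −0.07 to 0.42 (adjusted p = 0.631 by limma with Benjamini-Hochberg adjustment). Between the nearly identical libraries, WCE replicate 1 was higher than vehicle replicate 3 by 0.085 for MNT and 0.16 for MLX on the log2 scale, where their median difference over abundant entries was 0.028 and WCE replicate 1 had 25.0% of the depth. Those abundant entries had a mean of at least 50 FPKM, above the level of MNT and MLX. The difference of this pair over entries at the level of MNT or MLX was not determined. For each of the 2 genes the exact permutation test over the 6 tumors gave a two-sided p of 0.1, the smallest it allows. Any gene with separated groups gets this value here, so it restates the separation and is not separate support. Of all entries tested, 12.8% had groups that did not overlap, and 6.37% had all WCE-treated tumors higher.

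MGA, a large scaffold protein that pairs with MAX inside a Polycomb-type complex, was at 6.60, 6.14 and 6.25 FPKM across the vehicle-treated and at 6.36, 7.37 and 6.23 FPKM in the WCE-treated tumors. WCE replicate 2 alone stood above the vehicle-treated tumors, and the log2 fold change was 0.06 with a 95% interval of −0.18 to 0.30. Its locus, on chromosome 15 from 41952610 to 42062141, is shared with the microRNA entry MIR626.

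**Figure D2:**
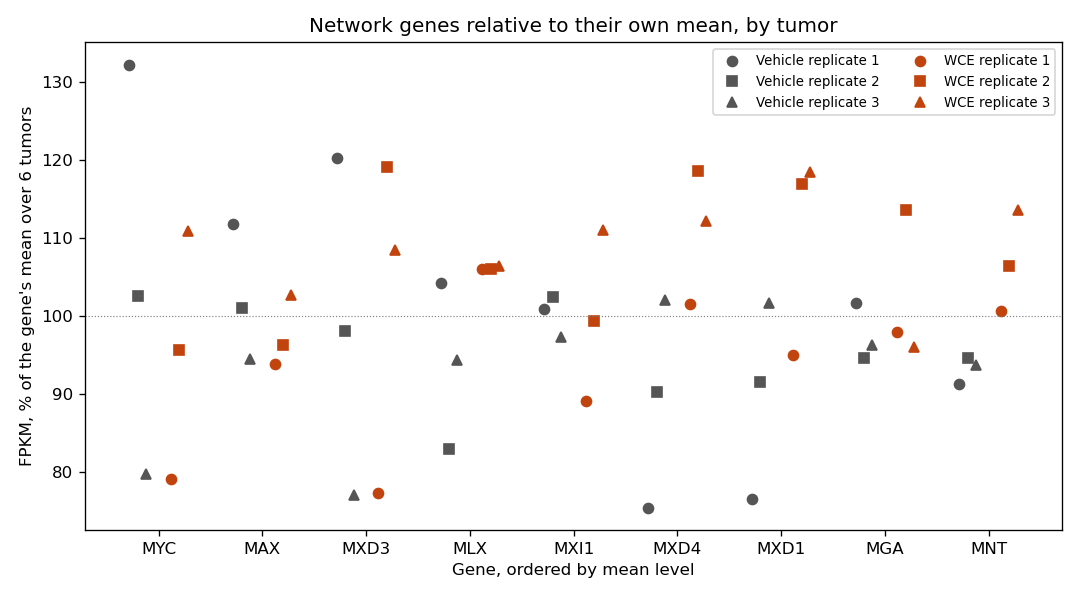
FPKM of each of the 9 network genes over the filter, as a percentage of its own mean over the 6 tumors, with gray symbols for vehicle-treated and orange symbols for WCE-treated tumors. MYC, MAX and MXD3 are highest in vehicle replicate 1 and low in both vehicle replicate 3 and WCE replicate 1, whereas MXD1 and MXD4 are lowest in vehicle replicate 1.

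Summed over the family, MXD1, MXD3, MXD4, MXI1 and MNT together were at 47.2, 45.8 and 43.2 FPKM across the vehicle-treated and at 42.3, 54.1 and 53.2 FPKM in the WCE-treated tumors. MYC with MYCN reached 3.08, 2.46 and 2.02 times this sum in vehicle replicates 1 to 3 and 2.05, 1.94 and 2.29 times in WCE replicates 1 to 3. The ratio was thus 2.52 ± 0.527 and 2.09 ± 0.180 (SD, n = 3 each), and the ranges overlapped. MYC made up 41.1% to 50.8% of the summed FPKM of the 10 genes, with its highest share in vehicle replicate 1.

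Across the network, 6 of the 9 genes tested had a higher and 3 a lower mean in WCE-treated tumors, with a median log2 fold change of 0.06, against −0.0063 for all 13287 entries. None of the 9 had an adjusted p under 0.05 by limma, and the lowest was 0.623. The count with an unadjusted p under 0.05 was also 0, while 7.10% of all entries met that threshold and 0.00753%, or 1 entry, met the adjusted one. With the unmoderated test the count was 1 (MNT, unadjusted p = 0.0211 in a fit over all entries), and with limma array weights it was 4 (MXD1, MXD4, MNT and MLX). Of all entries, 4.46% were under the threshold with the unmoderated test and 24.1% with array weights. Array weights were 0.447, 1.18 and 4.00 for WCE replicates 1 to 3 and 0.408, 1.445 and 0.802 for vehicle replicates 1 to 3. That fit thus leaned mostly on WCE replicate 3 for the WCE group. Of all 944 entries with an unadjusted p under 0.05, 53.2% were higher in WCE-treated tumors, a share that was 23.6% with upper-quartile scaling.

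**Figure D3:**
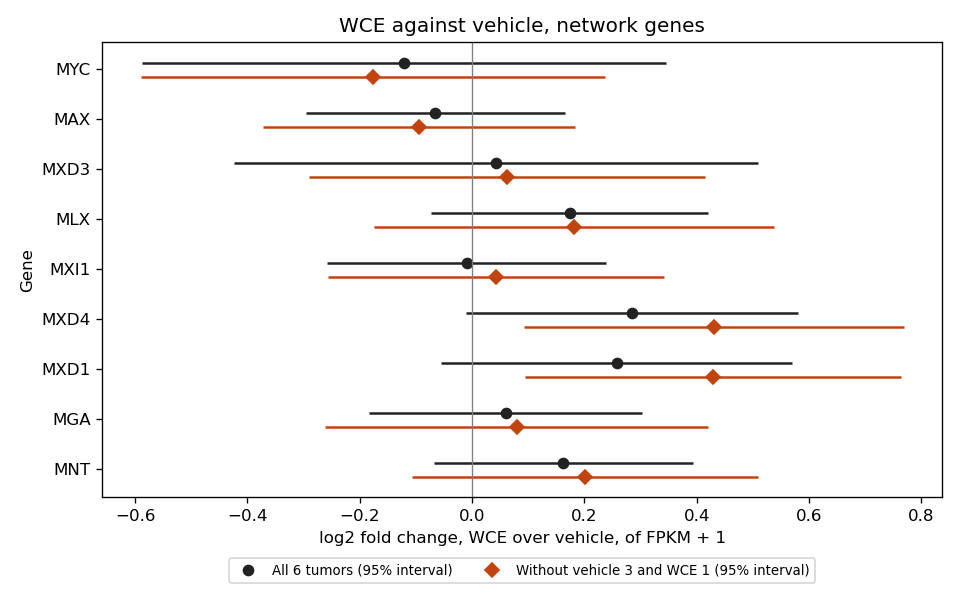
Log2 fold change of FPKM + 1, WCE over vehicle, of the 9 network genes tested, with 95% intervals from limma for all 6 tumors (black) and without vehicle replicate 3 and WCE replicate 1 (orange). All 9 black intervals cross 0, and the orange intervals of MXD1 and MXD4 lie above it.

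The promoters of MXD4, MNT and MLX are shown because, among network genes with a promoter window, only these held the E-box bound by MYC, MXD and MLX dimers. They are RefSeq sequences of GRCh38.p14, from 250 bases before to 50 after the annotated start, read 5′ to 3′ on the gene's strand, with each match to CACGTG (the same on both strands) in capitals. The MXD4 window is chr4:2262060-2262359 on the minus strand, with its match 238 bases before the start. The MNT window is chr17:2401011-2401310 on the minus strand, with its match 193 bases before the start. The MLX window is chr17:42566850-42567149 on the plus strand, with its match 50 bases before the start.
MXD4: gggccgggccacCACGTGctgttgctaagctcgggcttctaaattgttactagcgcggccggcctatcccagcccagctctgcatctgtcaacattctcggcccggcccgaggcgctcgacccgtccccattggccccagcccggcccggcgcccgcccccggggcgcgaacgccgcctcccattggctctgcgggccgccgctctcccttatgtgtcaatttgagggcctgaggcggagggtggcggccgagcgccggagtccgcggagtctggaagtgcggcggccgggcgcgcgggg
MNT: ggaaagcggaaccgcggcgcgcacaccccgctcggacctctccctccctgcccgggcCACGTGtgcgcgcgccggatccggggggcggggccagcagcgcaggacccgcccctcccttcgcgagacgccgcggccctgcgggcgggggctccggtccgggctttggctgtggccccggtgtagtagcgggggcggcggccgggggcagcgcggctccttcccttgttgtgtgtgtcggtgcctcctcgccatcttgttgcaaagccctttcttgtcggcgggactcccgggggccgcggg
MLX: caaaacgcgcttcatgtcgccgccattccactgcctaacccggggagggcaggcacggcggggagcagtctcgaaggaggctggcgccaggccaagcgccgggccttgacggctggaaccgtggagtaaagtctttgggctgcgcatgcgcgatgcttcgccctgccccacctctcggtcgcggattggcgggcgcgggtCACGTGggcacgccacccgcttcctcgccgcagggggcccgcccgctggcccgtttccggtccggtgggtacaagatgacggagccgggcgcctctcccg

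A promoter was found for 9 of the 10 network genes, not for MYC, and 3 of the 9 (33.3%) held the motif. Among all 35116 promoter windows 7.26% held it, and among 9066 tested entries matched by symbol 12.4% held it in any of their windows. MXD1 had a log2 fold change close to that of MXD4 and no match in its window. The match is a description of letters and not of binding.

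Genes around the network were described from 9 lists. They hold 113 genes over the filter. At an unadjusted p under 0.05 by limma there were 7 (6.19%), of which WCE-treated tumors had 4 at a higher and 3 at a lower level, against the 7.10% of all entries, and 0 had an adjusted one (lowest 0.623). Without vehicle replicate 3 and WCE replicate 1 the count was 22 (19.5%), against 18.4% of all entries, again with 0 adjusted (lowest 0.174). Leaving out only vehicle replicate 3 gave 16 and only WCE replicate 1 also 16 (14.2% each, against 13.3% and 15.3% of all entries), while the count was 2 with vehicle replicate 1 left out, 1 with vehicle replicate 2 or WCE replicate 2 left out and 0 with WCE replicate 3 left out. Without the nearly identical libraries the log2 fold change was 0.59 for USF1, 0.34 for CDK9, −0.49 for SAP18 and −0.43 for USP28. It was −0.44 for SRM, 0.51 for CDKN1B and 0.77 for NDRG2, and each of the 7 kept its direction. These genes were picked in a fit that included the same 4 tumors, so the kept direction is not separate support. Groups did not overlap in 8.85% of the 113 genes, against 12.8% of all entries.

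In the wider set of E-box factors, 1 of 7 genes, USF1, had an unadjusted p under 0.05, against 7.10% of all entries. It was higher in WCE-treated tumors. USF1, an E-box binding activator outside the MAX network, was at 32.7, 39.2 and 44.6 FPKM across the vehicle-treated and at 44.5, 53.7 and 55.0 FPKM in the WCE-treated tumors. Its groups overlapped only between the nearly identical libraries, with a log2 fold change of 0.39 ± 0.14 (SE; unadjusted p = 0.0252 by limma). MLXIPL, the glucose-sensing partner of MLX, was lower in every WCE-treated tumor, at 2.73, 1.69 and 1.53 against 1.42, 1.22 and 1.24 FPKM. Its gap lay between the nearly identical libraries, and it missed that threshold (unadjusted p = 0.071 by limma). The median log2 fold change of this list was 0.04.

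Of 30 coactivator, corepressor and MGA complex genes tested, 2 had an unadjusted p under 0.05 (6.67%, against 7.10% of all entries). In WCE-treated tumors CDK9 was at a higher and SAP18 at a lower level. CDK9 was the 1 of 11 MYC coactivators. CDK9, the kinase that releases paused RNA polymerase, was higher with separated groups, from 26.3 ± 0.326 to 31.7 ± 3.64 FPKM (SD, n = 3 each, unadjusted p = 0.0469 by limma). WDR5, which anchors MYC on chromatin, was lower in every WCE-treated tumor, at 25.1 ± 2.18 against 21.9 ± 0.531 FPKM (SD, n = 3 each). The WDR5 gap, like that of MLXIPL, was the one between the nearly identical libraries. Separated groups, as in CDK9 and WDR5, were found in 12.8% of all entries. The unadjusted p of WDR5 was 0.0943 by limma and missed the threshold. Of 10 MXD corepressor genes 1 was under it, SAP18, a SIN3-associated subunit, at 55.8 ± 7.87 and 44.0 ± 3.30 FPKM (SD, n = 3 each, unadjusted p = 0.031 by limma). HDAC2, a deacetylase of that complex, was at 32.1, 26.7 and 22.9 against 22.3, 22.3 and 21.6 FPKM, and SIN3A, its scaffold, at 10.5, 8.62 and 10.3 against 10.5, 11.8 and 10.7 FPKM, and neither passed. The 9 genes of the MGA complex had no member under the threshold and a median log2 fold change of −0.10. Their lowest unadjusted p was that of TFDP1, the E2F dimer partner, which was at 55.8 ± 4.77 and 48.3 ± 2.73 FPKM (SD, n = 3 each).

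Of 13 genes that act on MYC protein stability, 1 had an unadjusted p under 0.05, against 7.10% of all entries. USP28, a deubiquitinase that stabilizes MYC, went from 9.90, 8.72 and 8.71 FPKM across the vehicle-treated to 7.89, 6.43 and 6.83 FPKM in the WCE-treated tumors. There was no overlap (log2 fold change −0.33 ± 0.11, SE, unadjusted p = 0.0193 by limma). The USP28 gap, like that of MLXIPL, was the one between the nearly identical libraries. Separated groups were found in 12.8% of all entries. USP36, a nucleolar deubiquitinase of MYC, was at 17.0, 14.7 and 16.0 against 16.1, 23.3 and 22.1 FPKM and did not pass. FBXW7, the ubiquitin ligase subunit that marks MYC for degradation, was at 4.68 ± 0.570 and 4.75 ± 0.373 FPKM (SD, n = 3 each). Its log2 fold change was 0.02, as was the median of this list. None of 8 genes that regulate MYC transcription passed, and their median was −0.10. FUBP1, which binds the far upstream element of MYC, had the lowest unadjusted p among them (0.0664 by limma), at 25.7, 26.1 and 25.0 against 25.6, 36.7 and 33.6 FPKM.

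MYC-induced target genes, mainly of ribosome production and nucleotide or polyamine synthesis, were lower by mean in 28 and higher in 11 of 39 genes tested, with a median log2 fold change of −0.09. Of all entries, 48.6% were higher and 7.10% had an unadjusted p under 0.05. SRM, the spermidine synthase gene, was the 1 target with an unadjusted p under 0.05, at 109, 89.6 and 81.3 FPKM against 79.9, 71.0 and 74.7 FPKM (unadjusted p = 0.0465 by limma). MRTO4, a ribosome assembly factor, was at 46.0 ± 8.32 and 36.5 ± 0.674 FPKM, and NOP2, an rRNA methyltransferase, at 32.8 ± 2.36 and 41.8 ± 7.99 FPKM (SD, n = 3 each). Neither passed. The groups of MRTO4 were separated only by 37.5 FPKM in vehicle replicate 3 against 37.3 FPKM in WCE replicate 1, the nearly identical libraries. ODC1, the polyamine enzyme and a classic MYC target, was at 563, 343 and 282 FPKM across the vehicle-treated and at 282, 381 and 383 FPKM in the WCE-treated tumors. NCL, which codes for nucleolin, was at 523, 425 and 391 against 389, 428 and 408 FPKM, and CDK4, a kinase of the G1 phase, at 88.8, 72.7 and 63.8 against 62.9, 78.0 and 78.8 FPKM. Vehicle replicate 1 was the highest tumor for SRM, MRTO4, ODC1, NCL and CDK4, as it was for MYC. NOP2 was highest in WCE replicate 3, at 48.8 FPKM, against 35.1 FPKM in vehicle replicate 1. SRM, MRTO4 and NOP2 were named for their low unadjusted p, so their order of tumors is partly selected. Without vehicle replicate 1 the median of the 39 genes was 0.0042, with 18 lower and 21 higher, and with array weights it was −0.0027, with 20 lower and 19 higher. Without vehicle replicate 2 it was −0.15 (32 lower, 7 higher) and without vehicle replicate 3 −0.17 (30 lower, 9 higher). It was −0.059, −0.11 and −0.11 without WCE replicates 1 to 3, and −0.15 without the nearly identical libraries (29 lower, 10 higher). In that last fit 6 targets were lower and 1 higher at an unadjusted p under 0.05 by limma, beside 18.4% of all entries. The E-box was in the promoter of 23 of the 36 targets with a window (63.9%).

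**Figure D4:**
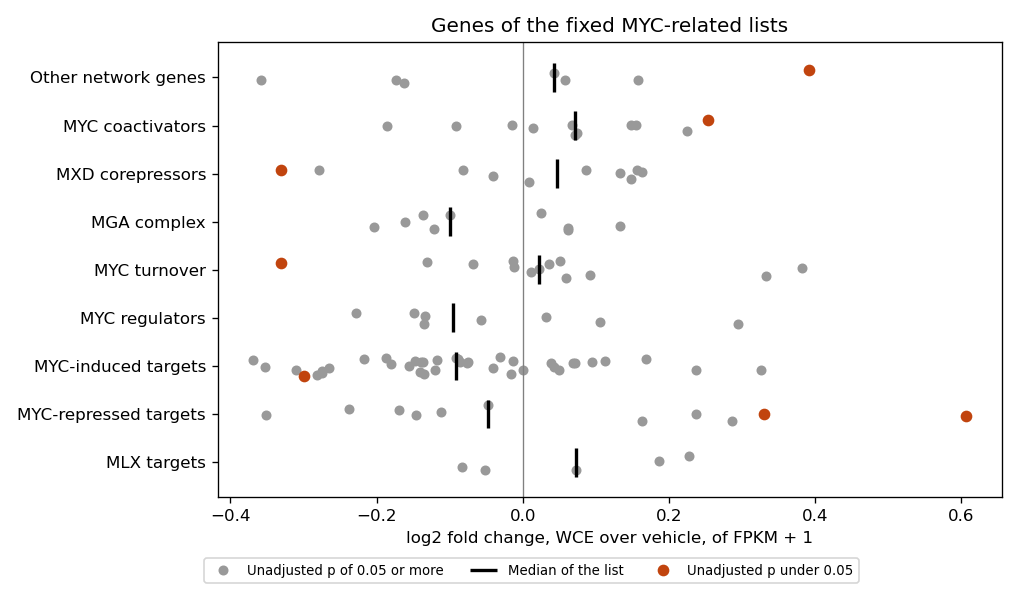
Log2 fold change of FPKM + 1, WCE over vehicle, of each gene tested in the 9 lists around the network, with the median of each list as a black bar and genes at an unadjusted p under 0.05 in orange. The 7 orange points lie on both sides of 0, and the bars lie between −0.10 and 0.07.

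Of 11 genes that MYC represses, 2 were higher in WCE-treated tumors with an unadjusted p under 0.05 and 9 did not pass. The share of all entries under that threshold, in either direction, was 7.10%. CDKN1B, the cyclin-dependent kinase inhibitor p27, was at 13.1, 14.2 and 14.8 FPKM across the vehicle-treated and at 14.6, 19.9 and 19.7 FPKM in the WCE-treated tumors (unadjusted p = 0.0432 by limma). NDRG2, a differentiation-linked gene of low level here, was at 0.650, 0.877 and 1.97 against 2.61, 1.72 and 2.32 FPKM (unadjusted p = 0.034 by limma). CDKN1A, the inhibitor p21, went the other way by mean, at 28.3, 35.4 and 36.0 against 36.0, 18.4 and 25.5 FPKM, and did not pass. Without the nearly identical libraries its log2 fold change was −0.53 (unadjusted p = 0.0425 by limma). In that fit 3 of the 11 genes were higher and 2 lower under the threshold, beside 18.4% of all entries. The median of this list was −0.05. MLX and MLXIP target genes gave 0 of 5 under the threshold. TXNIP, their best known target, was at 74.7, 111 and 154 FPKM across the vehicle-treated and at 152, 83.2 and 118 FPKM in the WCE-treated tumors, highest in the nearly identical libraries.

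The other genes with the lowest unadjusted p of their lists did not reach 0.05 either. Their log2 fold changes were 0.38 for FBXO32, 0.24 for DDIT3, 0.23 for EP400, 0.23 for PKLR, 0.19 for FASN and 0.16 for RBBP4. On the other side they were −0.23 for CNBP, −0.17 for TFAP4, −0.16 for CBX3, −0.14 for PCGF6, −0.14 for HNRNPK and −0.05 for ACACA. FBXO32, a ubiquitin ligase subunit, was at 2.19 FPKM in vehicle replicate 1 and between 4.23 and 5.24 FPKM in the other 5 tumors.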

How the data were processed

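RNA-seq libraries of 6 PC-3 xenograft tumors, 3 per treatment, were grouped by their sample labels. The authors deposited FPKM values per gene entry in 1 table with a column per tumor. The submitters' processing notes name TopHat2 2.0.13, Cufflinks, hg19 and mm10 with no role for each, so how mouse reads of the host were treated is not known. Absolute depth is unknown, and relative depth (25.0% to 100%) came from the steps of low FPKM values, so no counting intervals are given. Loci are as listed, counted from 1.

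FPKM was changed to log2(FPKM + 1), which understates changes of low genes, and the 13287 entries with a mean of at least 0.5 FPKM were tested between groups in R 4.3.3 with limma 3.58.1 (mean-variance trend, two-sided, Benjamini-Hochberg over all entries, threshold 0.05). Only the main limma fit was run on simulated data, with independent noise and changes larger than those of the network genes. That run says nothing of the other settings or of nearly identical libraries. Summaries used Python 3.11.15, numpy 2.4.6 and pandas 2.3.3, and figures matplotlib 3.10.9. The genes named were the 10 network genes, the 3 genes of each list with the lowest unadjusted p, and NCL, ODC1, CDK4, CDKN1A, TXNIP, SIN3A and FBXW7. The network genes and lists were chosen with earlier results of these data known. Nothing says more of the replicates than that they are individual tumors.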

Additional observations from a re-analysis of the deposited data

How the results depend on the processing

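Pseudocount, filter, scaling, trend, moderation, tumor weights, a replicate block and left-out tumors were varied. Network genes with an unadjusted p under 0.05 numbered 0 in the comparison as designed, 1 with the unmoderated test, 4 with array weights, 2 without the nearly identical libraries and 0 to 2 across fits leaving out 1 tumor. Genes of the 9 lists numbered 7, against 1, 30, 22 and 0 to 16 in those settings. All entries numbered 944, against 593, 3201, 2449 and 219 to 2033. Entries with an adjusted p numbered 1, 0 with the unmoderated test, 0 without a filter (1051 unadjusted), 5 without the nearly identical libraries and 1 to 7 with 1 tumor left out. Among the fits leaving out 1 tumor, the lowest unadjusted count over all entries came without WCE replicate 3 and the highest without WCE replicate 1. The median log2 fold change of the network genes was 0.06, 0.18 with array weights and −0.0064 to 0.17 with 1 tumor left out. The cause was not tested.

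Array weights turned MYC to 0.081, MAX to 0.00094 and MXI1 to 0.076. MYC ranged from −0.30 without vehicle replicate 3 to 0.060 without vehicle replicate 1, and was 0.0044 when WCE replicate 1 was dropped. MXD3 ranged from −0.11 without vehicle replicate 3 to 0.22 without WCE replicate 1, with −0.076 without WCE replicate 2 and −0.013 without WCE replicate 3. MXI1 ranged from −0.081 without WCE replicate 3 to 0.062 without WCE replicate 1, with 0.0054 without vehicle replicate 2 and 0.043 without the nearly identical libraries, and MGA from −0.0064 without WCE replicate 2 to 0.10 without WCE replicate 3. MXD1, MXD4, MNT and MLX kept their direction in every setting run. MLX had an unadjusted p of 0.0437 by limma without vehicle replicate 1 (0.25), and was at 0.093 without vehicle replicate 2.

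The replicate block brought 1 network gene, MXD4, under 0.05 (unadjusted p = 0.0481 by limma), beside 1049 of all entries. Tumors with the same number share only a number. The correlations of their deviations from the group means were −0.24, 0.16 and −0.093, and not every tumor correlated best with its own number. WCE replicate 1 had 25.0% of the depth of vehicle replicate 3.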
